A study of Homo sapiens with 8 samples.

Results

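Cytoplasmic dynein 1, dynactin and the LIS1 group were represented by 90 single guide RNAs (sgRNAs), 5 for each of 18 genes, among 102987 targeting sgRNAs that passed the same count filter and 209070 sgRNAs listed. They were taken by gene symbol from the primary promoter sets of a genome-wide CRISPR interference (CRISPRi) library, with a mean count of at least 20 over the libraries; the rule uses no measured change, but the gene list was drawn up with earlier results of these data known. The table lists 180 such sgRNAs for these genes, of which the other 90 had a count of 0 in every library. CRISPRi lowers transcription by bringing a catalytically inactive Cas9 fused to the KRAB repressor domain (dCas9-KRAB) to a promoter, and an sgRNA becomes rarer in the population when its knockdown slows growth or kills the cell.

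The cells were K562, a human leukemia line, carrying dCas9-KRAB and stably expressing either mutant or wild-type uL16, a protein of the large ribosomal subunit encoded by RPL10. In all, 4 groups of genomic DNA libraries were sequenced, with 2 libraries each: mutant uL16 at day 9, mutant uL16 at day 0, wild-type uL16 at day 9 and wild-type uL16 at day 0. All groups carried the same library and had been selected with puromycin at 1 µg/ml for 3 days. The sample titles mark the mutant line only as delta and do not describe the mutation further. The labels also do not say whether either line is a single clone, or whether replicates came from separate cultures. The p-values therefore measure the spread between these libraries, which may be technical. The screen was set up to find quality control factors for defective large subunits, and the design text places its end after 10 cell doublings.

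Dynein 1 is the motor that carries cargo toward the minus ends of microtubules. It is built on paired heavy chains, with intermediate, light intermediate and light chains on their tails, and it works with dynactin, a complex built around a short filament of the actin-related protein Arp1. LIS1 and its partners NDE1 and NDEL1 help the motor to assemble into its active form. In dividing cells the machinery positions the nucleus and the spindle and clears checkpoint proteins from kinetochores, and throughout the cell cycle it places the Golgi, endosomes and lysosomes.

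All sgRNAs of DCTN3 were strongly depleted, some of those of DYNC1H1 were while others were not called, and none of those of ACTR1A was called. Stretches of the promoters of these genes are printed below. Each is the run of 150 bases just before the RefSeq transcription start (GRCh38.p14), read 5′ to 3′ on the gene's strand. Capitals mark every GG or CC pair, the letters that an NGG motif, the neighbouring motif that Cas9 reads, needs on the printed or the opposite strand.
DCTN3, chr9:34620496-34620645, minus strand: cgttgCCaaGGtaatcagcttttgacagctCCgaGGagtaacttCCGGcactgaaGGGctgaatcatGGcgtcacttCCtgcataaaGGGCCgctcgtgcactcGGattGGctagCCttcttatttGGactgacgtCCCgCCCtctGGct
DYNC1H1, chr14:101964423-101964572, plus strand: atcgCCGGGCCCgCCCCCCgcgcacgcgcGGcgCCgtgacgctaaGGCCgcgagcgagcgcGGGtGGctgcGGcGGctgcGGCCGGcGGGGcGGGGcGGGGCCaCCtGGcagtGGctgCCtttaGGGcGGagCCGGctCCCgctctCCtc
ACTR1A, chr10:102502713-102502862, minus strand: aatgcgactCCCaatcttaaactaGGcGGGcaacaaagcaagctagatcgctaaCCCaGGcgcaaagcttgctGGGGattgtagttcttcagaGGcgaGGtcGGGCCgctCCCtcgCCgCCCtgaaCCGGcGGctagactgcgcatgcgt
Counted on both strands and with overlaps, NGG occurred 22 times in the DCTN3 run, 44 times in the DYNC1H1 run and 24 times in the ACTR1A run. The 24 runs found for 16 of the 18 genes held 22 to 53, with a median of 30, the same median as over 35116 promoter runs of this length, 100% of which held at least 1. The sgRNAs were not placed on these runs. Their name positions span 536 bases for DYNC1H1 and 463 for ACTR1A, so some must lie outside the run of 150 bases. The sgRNAs are identified below by gene, strand and distance within the gene's set, and those of a gene are numbered 1 to 5 along the coordinates in their names.

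Total counts ranged from 39233340 to 143585751 per library, and the median count of the 90 sgRNAs from 176 to 1154.5. Replicate libraries correlated at 0.950 to 0.970 over the log2 values of 17547 genes. Genomic DNA holds no marker RNA, so the cell type could only be looked at through the dependencies of this line. GATA1, the erythroid transcription factor, fell by 2.65 on the log2 scale in mutant and by 3.09 in wild-type cells, and BCR, a partner of the BCR-ABL1 fusion, fell by 2.21 and 1.89 in the same order. GFI1B changed by -1.23 in mutant and -1.58 in wild-type cells, and LMO2 by -1.10 and -0.63. ABL1 was not tested. Non-targeting control sgRNAs, 1894 in number, had a median log2 change of 0.04 in mutant and 0.05 in wild-type cells, with 10 (0.528%) and 11 (0.581%) of them called lower. RPL10 itself changed by -1.26 in mutant and -0.09 in wild-type cells. Reads were not tied to single molecules by identifiers, and the depth therefore bounds the error of counting alone.

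From day 0 to day 9, knockdown of 11 of the 18 genes was depleted in mutant cells and of the same 11 in wild-type cells, and none of the 18 was enriched, where 0.798% of all genes were in mutant and 0.986% in wild-type cells. The 11 were the heavy chain gene DYNC1H1, the intermediate chain gene DYNC1I2, the light chain gene DYNLRB1, the dynactin genes DCTN1, DCTN2, DCTN3, ACTR10, DCTN4 and DCTN6, and the regulators PAFAH1B1 and NDE1. The 7 without a call in either line were DYNC1LI1, DYNC1LI2, DYNLL1, ACTR1A, CAPZB, DCTN5 and NDEL1. Genes were tested on the counts summed over their sgRNAs with edgeR's quasi-likelihood test and called at a Benjamini-Hochberg adjusted p under 0.05 over all 17547 genes. At that threshold 9.07% of all genes were lower in mutant cells, 9.28% in wild-type cells and 7.49% in both, against 61.1% of these 18. Since the list was drawn up with earlier results of these data known, these shares and those below describe the 18 and are not a test of them. Falls of more than 1 on the log2 scale were found for 6 of the 18 in each line, where 3.39% of all genes had them in mutant and 3.34% in wild-type cells. The median log2 change of the 18 was -0.53 in mutant and -0.55 in wild-type cells, beside 0.01 in either line over all genes tested. Both day 9 libraries lay below both day 0 libraries for 14 of the 18 genes in mutant cells (24.5% of all genes) and for 13 in wild-type cells (24.2% of all genes).

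Within dynein itself, the intermediate chain had the largest fall in summed counts. The median over the 5 sgRNAs of a gene ranked otherwise. It was lower for the light chain gene DYNLRB1 (-3.52 in mutant, -2.98 in wild-type cells) than for DYNC1I2 (-3.16 and -2.55). DYNC1I2, whose product links the motor to dynactin, had 5.77 and 8.67 CPM (the usual depth-scaled read count, here summed over 5 sgRNAs) in mutant cells at day 9, against 39.9 and 44.1 CPM at day 0. In wild-type cells it had 7.43 and 8.72 CPM at day 9, against 40.5 and 42.1 CPM at day 0. The day 9 and day 0 libraries were far apart in both lines. The fitted log2 change was -2.51 (SE 0.18, adjusted p = 4.96e-13) in mutant and -2.35 (SE 0.18, adjusted p = 2.76e-12) in wild-type cells. Its sgRNA 4 fell most in wild-type cells (-3.16 in mutant, -3.08 in wild-type cells), and sgRNA 5, 40 bases away on the other strand, had the smallest change (-0.30 in mutant, -0.65 in wild-type cells). In mutant cells the lowest was sgRNA 2, at -4.54, beside -2.62 in wild-type cells.

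DYNC1H1, the heavy chain with the motor's ATPase ring, is the only catalytic subunit in the list, and its summed sgRNAs moved little. They had 48.1 and 50.5 CPM in mutant cells at day 9, against 63.2 and 67.3 CPM at day 0, and 44.1 and 47.9 CPM in wild-type cells at day 9, against 64.8 and 56.9 CPM at day 0. The groups did not overlap in either line, but the fall of 0.40 on the log2 scale in each line (SE 0.10 in mutant, 0.11 in wild-type; adjusted p = 0.0067 and 0.00721 in that order) was the smallest among the 11 in mutant cells, and in wild-type cells only that of DCTN4 was smaller. The 5 sgRNAs behind this sum were split. At sgRNA 3 the level was 0.127 and 0.719 CPM in mutant cells at day 9, against 3.09 and 5.29 CPM at day 0, a log2 change of -3.18 (SE 0.59), and in wild-type cells it was -3.60 (SE 0.62). Its neighbour sgRNA 2, 10 bases away on the same strand, had 15.2 and 12.0 CPM in mutant cells at day 9, against 13.5 and 14.6 CPM at day 0, a change of -0.05 (SE 0.19), and -0.09 in wild-type cells. The highest value in wild-type cells was at sgRNA 4, 39 bases from number 3, with -0.13 in mutant and 0.17 in wild-type cells. Only sgRNAs 1 and 3 of the 5 passed the test in each line. The 3 that did not pass had the higher mean counts, but these means include day 9, where depletion lowers them. At day 0 in mutant cells sgRNA 1, which passed, had 7.87 and 8.55 CPM, and sgRNA 4, which did not, had 9.93 and 9.11 CPM. Among the 3 that did not pass, sgRNA 5 had both day 9 libraries below both day 0 libraries in each line (-0.15 in mutant, -0.32 in wild-type cells). Of all targeting sgRNAs, 21.4% lay so in mutant and 20.9% in wild-type cells. Knockdown by the single sgRNAs was not measured. With each sgRNA weighted alike, by limma on the mean log2 CPM, the gene's change was -1.15 in mutant and -1.16 in wild-type cells. The call on the sum was lost without mutant day 9 replicate 1 (adjusted p = 0.0576) or mutant day 0 replicate 2 (0.156) in mutant cells, and without wild-type day 9 replicate 1 (0.0591) or wild-type day 0 replicate 1 (0.227) in wild-type cells.

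The light intermediate chains, which tie the heavy chains to cargo adaptors, are encoded by a pair of paralogs, and neither knockdown was called. DYNC1LI1 had 57.3 and 57.2 CPM in mutant cells at day 9, against 68.0 and 61.4 CPM at day 0, and changed by -0.18 (SE 0.10, adjusted p = 0.423). In wild-type cells it had 64.7 and 54.1 CPM at day 9, against 59.8 and 69.0 CPM at day 0, a change of -0.12 (SE 0.11, adjusted p = 0.602). DYNC1LI2 had 57.5 and 54.5 CPM in mutant cells at day 9, against 61.8 and 61.9 CPM at day 0, with a change of -0.14 (SE 0.10, adjusted p = 0.532), and -0.01 (SE 0.10, adjusted p = 0.964) in wild-type cells. The day 9 libraries lay below the day 0 libraries for both genes in mutant cells and overlapped them in wild-type cells, and none of the 10 sgRNAs was called in either line.

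Of the light chain genes, DYNLRB1 fell in both lines and DYNLL1 was not called. DYNLRB1, a roadblock chain that dimerises on the intermediate chains, had 14.1 and 10.8 CPM in mutant cells at day 9, against 33.0 and 36.2 CPM at day 0, and 15.2 and 14.7 CPM in wild-type cells at day 9, against 43.0 and 34.7 CPM at day 0. The groups stood well apart, with log2 changes of -1.48 (SE 0.17, adjusted p = 1.44e-08) in mutant and -1.37 (SE 0.17, adjusted p = 7.22e-08) in wild-type cells. Here too sgRNAs divided: number 2 changed by -4.13 in mutant and -4.70 in wild-type cells, while number 1, 38 bases from it on the same strand, stood at 0.50 and 0.30 in the same order. DYNLL1, the LC8 chain that also serves many proteins outside dynein, had 67.0 and 72.6 CPM in mutant cells at day 9, against 61.8 and 60.3 CPM at day 0, a change of 0.19 (SE 0.10, adjusted p = 0.31), and in wild-type cells the change was -0.04 (adjusted p = 0.883). Its mutant day 9 libraries were both above the day 0 libraries, and the wild-type groups overlapped.

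The shoulder and sidearm of dynactin held the deepest fall of the 18. DCTN3 encodes p24, the smallest shoulder subunit, and had 2.23 and 3.86 CPM in mutant cells at day 9, against 45.1 and 40.2 CPM at day 0. In wild-type cells it had 2.60 and 3.35 CPM at day 9, against 45.1 and 43.3 CPM at day 0. What was left at day 9 was 7.49% of the day 0 level in mutant and 6.74% in wild-type cells, and no day 9 library came near a day 0 library. The log2 change was -3.74 (SE 0.21, adjusted p = 1.45e-15) in mutant and -3.89 (SE 0.21, adjusted p = 1.31e-15) in wild-type cells, rank 23 and rank 4 from the lowest of 17547 genes.

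All 5 DCTN3 sgRNAs, whose name positions span 39 bases, moved alike. Their changes ran from -5.23 to -3.17 in mutant cells, and in wild-type cells from -4.56 at sgRNA 4 to -3.54 at sgRNA 5. At those same sgRNAs mutant cells had -4.83 and -3.17. The only one without a call in wild-type cells was sgRNA 2 (-4.04, SE 1.35, adjusted p = 0.0957), which was called in mutant cells (adjusted p = 0.0472) and was also the scarcest of the 90, with a mean count of 29.5. Its counts were 0 and 2 in mutant cells at day 9, against 62 and 46 at day 0, and 4 and 1 in wild-type cells at day 9, against 58 and 63 at day 0.

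DCTN1 encodes p150Glued, the sidearm that binds microtubules and the dynein intermediate chain. Its sgRNAs summed to 16.2 and 22.0 CPM in mutant cells at day 9, against 61.3 and 60.3 CPM at day 0, and to 17.4 and 17.7 CPM in wild-type cells at day 9, against 58.5 and 61.9 CPM at day 0. These are log2 changes of -1.66 (SE 0.13, adjusted p = 4.75e-12) in mutant and -1.78 (SE 0.13, adjusted p = 1.57e-12) in wild-type cells. All 5 sgRNAs were called in mutant cells and 3 in wild-type cells, where they ran from -3.02 at sgRNA 5 to -0.59 at sgRNA 1; the same sgRNAs gave -1.68 and -0.94 in mutant cells. DCTN2 encodes dynamitin, the shoulder subunit whose excess takes dynactin apart, and had 13.1 and 12.3 CPM in mutant cells at day 9, against 32.6 and 37.3 CPM at day 0. Wild-type cells had 13.6 and 10.0 CPM at day 9, against 31.7 and 31.6 CPM at day 0. Its log2 change was -1.47 (SE 0.18, adjusted p = 4.23e-08) in mutant and -1.42 (SE 0.18, adjusted p = 1.06e-07) in wild-type cells. By the wild-type values sgRNA 5 was lowest (-2.18 in mutant, -2.33 in wild-type cells) and sgRNA 1 highest (0.10 in mutant, -0.49 in wild-type cells). Shoulder and sidearm together gave 13 of 15 sgRNAs called in mutant cells and 9 of 15 in wild-type cells. Among all targeting sgRNAs 5.09% were called lower in mutant and 5.2% in wild-type cells. No sgRNA of these genes passed the test of the difference between lines.

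The Arp1 filament gave no gene call. ACTR1A encodes the main Arp1 isoform and had 42.2 and 48.7 CPM in mutant cells at day 9, against 48.0 and 50.4 CPM at day 0, a change of -0.11 (SE 0.11, adjusted p = 0.70), and wild-type cells gave -0.09 (SE 0.11, adjusted p = 0.736). The mutant groups overlapped, the wild-type day 9 libraries lay just below the day 0 libraries, and none of the 5 sgRNAs passed. CAPZB, the beta subunit of the capping protein that closes the barbed end of this filament and of actin filaments, had 33.1 and 34.5 CPM in mutant cells at day 9, against 39.3 and 35.9 CPM at day 0, and 31.0 and 36.1 CPM in wild-type cells at day 9, against 43.4 and 38.2 CPM at day 0. The groups did not overlap in either line, but its change was -0.15 (SE 0.13, adjusted p = 0.621) in mutant and -0.28 (SE 0.13, adjusted p = 0.206) in wild-type cells, and neither passed. A single CAPZB sgRNA, number 4, was called, with a fall of 1.02 (adjusted p = 0.0349) in mutant and of 1.33 (adjusted p = 0.00364) in wild-type cells. Its neighbour sgRNA 5 changed by -0.65 in mutant and -0.40 in wild-type cells without a call.

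The pointed end, which closes the other end of the filament and contacts cargo adaptors, was graded. ACTR10 encodes Arp11, which caps the filament directly, and had 10.0 and 8.92 CPM in mutant cells at day 9, against 41.2 and 47.1 CPM at day 0, and 7.30 and 9.11 CPM in wild-type cells at day 9, against 51.6 and 41.6 CPM at day 0. With log2 changes of -2.23 (SE 0.17, adjusted p = 9.52e-13) in mutant and -2.51 (SE 0.17, adjusted p = 1.48e-13) in wild-type cells, it had the third lowest value of the 18 in mutant cells and the second lowest in wild-type cells. By the wild-type values sgRNA 3 was lowest (-3.29 in mutant, -3.14 in wild-type cells) and sgRNA 5 highest (-2.15 in mutant, -1.09 in wild-type cells), while sgRNA 1 was at 0.24 in mutant and -1.74 in wild-type cells.

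DCTN6, which encodes p27, fell less: 27.9 and 34.9 CPM in mutant cells at day 9, against 49.9 and 47.6 CPM at day 0, and 31.2 and 29.1 CPM in wild-type cells at day 9, against 47.1 and 53.3 CPM at day 0. The changes were -0.63 (SE 0.13, adjusted p = 0.000334) in mutant and -0.74 (SE 0.13, adjusted p = 3.72e-05) in wild-type cells, carried by sgRNAs 2 and 3. These lie 24 bases apart, and sgRNA 3 changed by -4.04 in mutant and -3.32 in wild-type cells, while sgRNA 4, the most abundant, stood at 0.42 and 0.30 in the same order. Without that most abundant sgRNA the summed change was -1.26 in mutant and -1.40 in wild-type cells. Abundance was the mean count over all 8 libraries, day 9 included, so this choice favours leaving out an sgRNA that was not depleted. At day 0 in mutant cells sgRNA 4 had 10.1 and 10.3 CPM, and the depleted sgRNA 2 had 11.4 and 9.27 CPM.

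DCTN4, which encodes p62, had 51.2 and 52.0 CPM in mutant cells at day 9, against 70.8 and 74.3 CPM at day 0, and 56.7 and 65.9 CPM in wild-type cells at day 9, against 76.5 and 74.5 CPM at day 0. It fell by 0.49 (SE 0.10, adjusted p = 0.000248) in mutant and by 0.30 (SE 0.10, adjusted p = 0.0404) in wild-type cells. A single sgRNA, number 4, was called: it changed by -1.93 in mutant and -1.60 in wild-type cells, while number 5, 20 bases away on the same strand, stood at -0.37 and 0.06 in the same order. The highest value in wild-type cells was at sgRNA 2, with 0.05 in mutant and 0.08 in wild-type cells. The wild-type call of DCTN4 lies near the threshold. It was lost without wild-type day 9 replicate 1 (log2 change -0.20, adjusted p = 0.275), wild-type day 0 replicate 1 (0.25) or 2 (0.154), and mutant day 0 replicate 1 (0.074) or 2 (0.0759), which enter only through the shared spread.

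DCTN5, which encodes p25, the partner of p27, was not called, with 52.6 and 40.7 CPM in mutant cells at day 9, against 55.5 and 48.8 CPM at day 0, and overlapping groups in both lines. Its change was -0.17 (SE 0.12, adjusted p = 0.551) in mutant and 0.07 (SE 0.12, adjusted p = 0.825) in wild-type cells. It is also the only gene of the 18 with sgRNAs of another gene within 1000 bases: those of PALB2, a partner of BRCA2 in homologous recombination, lie as near as 124 bases, with none shared. PALB2 changed by -0.48 (adjusted p = 0.000931) in mutant and -0.39 (adjusted p = 0.0079) in wild-type cells, with 2 of its 5 sgRNAs at a change below 0 in each.

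LIS1 and NDE1 fell, and NDEL1 was not called. PAFAH1B1, the gene of LIS1, which binds the motor domain, had 23.1 and 28.8 CPM in mutant cells at day 9, against 49.1 and 44.2 CPM at day 0, and 26.3 and 21.9 CPM in wild-type cells at day 9, against 44.7 and 42.3 CPM at day 0. At day 9, 55.9% of the day 0 level was left in mutant and 55.4% in wild-type cells, for log2 changes of -0.84 (SE 0.14, adjusted p = 1.54e-05) and -0.85 (SE 0.14, adjusted p = 1.4e-05). Its sgRNAs had moderate changes, all 5 negative in each line, with number 4 lowest (-1.37 in mutant, -1.52 in wild-type cells) and number 2 highest (-0.58 in mutant, -0.61 in wild-type cells), and only number 4 passed alone.

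NDE1, which brings LIS1 to dynein, had 32.8 and 32.1 CPM in mutant cells at day 9, against 50.1 and 46.3 CPM at day 0, and 30.4 and 31.2 CPM in wild-type cells at day 9, against 51.2 and 48.9 CPM at day 0. It fell by 0.57 (SE 0.12, adjusted p = 0.000474) in mutant and by 0.70 (SE 0.12, adjusted p = 2.82e-05) in wild-type cells, with sgRNA 1 lowest in wild-type cells (-0.51 in mutant, -1.44 in wild-type cells) and sgRNA 5 highest (-0.22 in mutant, 0.02 in wild-type cells). Only sgRNA 1 in wild-type cells passed alone (adjusted p = 0.000199). Its paralog NDEL1 had 38.999 and 53.3 CPM in mutant cells at day 9, against 48.7 and 46.6 CPM at day 0, and 54.8 and 40.4 CPM in wild-type cells at day 9, against 42.0 and 44.7 CPM at day 0, so the groups overlapped in both lines. NDEL1 changed by -0.04 (SE 0.13, adjusted p = 0.933) in mutant and by 0.13 (SE 0.13, adjusted p = 0.648) in wild-type cells.

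DYNLRB1 and NDE1 have a separate second promoter set, and none of these 10 sgRNAs was called in either line, with changes from -0.37 to 0.66 in mutant and from -0.43 to 0.46 in wild-type cells. When both promoters were pooled, DYNLRB1 changed by -0.21 in mutant cells, where its call was lost (adjusted p = 0.109), and by -0.32 in wild-type cells, while NDE1 changed by -0.33 and -0.27 in that order and kept its calls.

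Taken singly, 31 of the 90 sgRNAs passed as lower in mutant cells and 27 in wild-type cells, 26 of them in both, and none passed as higher. Among all targeting sgRNAs 5.09% passed as lower in mutant and 5.2% in wild-type cells. In mutant cells 38 of the 90 lay below the 2.5th percentile of the control sgRNAs (-0.68), and 37 did in wild-type cells (-0.71). The share of all targeting sgRNAs below these limits is not given here. Genes differed in how many of their 5 sgRNAs passed. In mutant cells it was all 5 for DCTN1 and DCTN3, 4 for DYNC1I2 and ACTR10, 3 for DYNLRB1 and DCTN2, 2 for DYNC1H1 and DCTN6, 1 for CAPZB, DCTN4 and PAFAH1B1, and none for the remaining 7. The range of the 5 log2 changes within a gene reached 4.63 in mutant and 4.99 in wild-type cells, both for DYNLRB1, and was at least 1 in wild-type cells for every called gene except PAFAH1B1, at 0.91. All 5 sgRNAs had a negative change for 6 of the 18 genes in each line, where 6.84% of all genes with 5 sgRNAs had this in mutant and 6.6% in wild-type cells.

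Close neighbours within a gene did not always share a call. Of 47 neighbouring pairs no more than 50 bases apart within a gene, 12 had 1 sgRNA called and the other not in mutant cells and 15 in wild-type cells, 15 and 11 had both called, and 20 and 21 had neither, each with mutant first. A split call need not mean unlike changes. In wild-type cells DCTN3 sgRNAs 1 and 2 were split at -4.09 and -4.04, whereas DYNC1H1 sgRNAs 2 and 3 were split at -0.09 and -3.60. The share of split pairs over all genes is not given here. Of the 35 sgRNAs on the plus strand 18 were lower in mutant and 16 in wild-type cells, and of the 55 on the minus strand 13 and 11. Over all targeting sgRNAs the strands hardly differed, at 4.97% and 5.12% on the plus and 5.2% and 5.28% on the minus strand. Within the 18 genes strand and gene move together, since all 5 sgRNAs of DCTN1 and of ACTR10 are on the plus strand, and the part of strand was not tested.

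The question of the screen, whether a knockdown costs mutant cells more than wild-type cells, gave no call among these genes. The difference of the 2 changes, mutant minus wild-type, had a median of -0.01 over the 18, and 9 of them had the lower change in mutant cells. edgeR called 0 of the 18 at an adjusted p under 0.05 and 0 at an unadjusted p under 0.05, beside 0.0171% and 5.68% of all genes. DESeq2 gave 0 and 0 calls in the same order, and limma on mean log2 CPM 0 and 1. The nearest to a difference was DYNLL1, at 0.23 (SE 0.14, unadjusted p = 0.108), with a change of 0.19 in mutant and -0.04 in wild-type cells. For DYNC1H1 the difference was 0.00, with a 95% interval from -0.30 to 0.30, for DCTN3 it was 0.15 (-0.43 to 0.73), and for PAFAH1B1 it was 0.01 (-0.38 to 0.41). Over the 18 genes the intervals reached no lower than -0.66, for DYNC1I2, and no higher than 0.74, for ACTR10, and each gene's interval held 0. Among single sgRNAs, 0 of 90 passed the difference (edgeR, smallest adjusted p = 0.964; 0% of all targeting sgRNAs) and 6 had an unadjusted p under 0.05 (5.11% of all). The smallest of these was DYNC1I2 sgRNA 2, named after its value was seen, with 0.33 and 0.272 CPM in mutant and 0.737 and 1.57 CPM in wild-type cells at day 9 and a difference of -1.91 (SE 0.57, unadjusted p = 0.00244).

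Of 55 related genes outside the 18 that were tested, 5 were lower in each line, a share near the 9.07% of all genes in mutant and 9.28% in wild-type cells, and 1 was higher in wild-type cells. The remaining dynein 1 chains, DYNC1I1, DYNLL2, DYNLRB2, DYNLT1 and DYNLT3, gave 0 of 5 calls in either line, with medians of -0.05 in mutant and 0.04 in wild-type cells. The smallest wild-type p-values belonged to DYNLRB2, the second roadblock chain, at -0.03 in mutant and 0.20 in wild-type cells (adjusted p = 0.925 and 0.302 in that order), and to DYNLL2, the second LC8 chain, at -0.13 and 0.04 (adjusted p = 0.558 and 0.871). Of ACTR1B, CAPZA1, CAPZA2, CAPZA3 and ACTB, the other subunits of the filament and of capping protein, none was lower. ACTR1B, the second Arp1 isoform, was at -0.15 in mutant and -0.21 in wild-type cells (adjusted p = 0.582 and 0.346), and CAPZA3, the capping subunit known from testis, rose by 0.25 in wild-type cells (adjusted p = 0.034) and stood at 0.04 in mutant cells (adjusted p = 0.875).

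Among 6 further dynein regulators, 2 fell in each line (9.07% of all genes did in mutant and 9.28% in wild-type cells), NUDC and NUDCD3, which encode co-chaperones of Hsp90. Their relatives NUDCD1 (0.31 in mutant, 0.08 in wild-type cells) and NUDCD2 (-0.0047 in mutant, 0.10 in wild-type cells) were not called. Nor were CLIP1 (0.0035 in mutant, -0.16 in wild-type cells) and MAPRE1 (-0.09 and -0.33), though MAPRE1 was near the threshold in wild-type cells (edgeR, adjusted p = 0.0532). NUDC fell by 0.96 (SE 0.11, adjusted p = 1.83e-08) in mutant and by 1.02 (SE 0.11, adjusted p = 6.72e-09) in wild-type cells, and NUDCD3 changed by -1.18 (SE 0.13, adjusted p = 1.14e-08) in mutant and -1.17 (SE 0.13, adjusted p = 1.76e-08) in wild-type cells. The medians of these 6 were -0.05 in mutant and -0.24 in wild-type cells. Of 24 cargo adaptors and mitotic recruiters tested, 3 fell in each line, which is also near the share over all genes (9.07% in mutant, 9.28% in wild-type cells). SPDL1 encodes Spindly, the adaptor that activates dynein at kinetochores, and changed by -1.86 (SE 0.17, adjusted p = 9.49e-11) in mutant and -1.92 (SE 0.17, adjusted p = 7.12e-11) in wild-type cells. CENPF, a kinetochore protein that binds NDE1, changed by -0.50 (SE 0.12, adjusted p = 0.00194) in mutant and -0.44 (SE 0.12, adjusted p = 0.00781) in wild-type cells. ZW10, part of the complex that brings Spindly to kinetochores, changed by -0.37 (SE 0.10, adjusted p = 0.0167) in mutant and -0.33 (SE 0.11, adjusted p = 0.0365) in wild-type cells. KNTC1 (-0.02 in mutant, 0.06 in wild-type cells) and ZWILCH (-0.0041 and -0.04), of the same complex, were not called in either line. The median of these 24 was -0.01 in mutant and -0.02 in wild-type cells. None of 4 genes of dynein 2, the motor of cilia, was called (medians 0.02 and 0.05), nor any of 11 heavy chains of axonemal dynein, the motor of beating cilia (medians 0.10 and 0.11). In dynein 2 the smallest wild-type p-values were those of DYNC2H1 (0.11 in mutant, 0.16 in wild-type cells) and DYNC2LI1 (0.01 and 0.17). In axonemal dynein they were those of DNAH12 (0.03 and 0.17) and DNAH3 (0.14 and 0.15).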

How the data were processed

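Per the file headers, the authors deposited raw read counts per sgRNA, 1 column per library, with read bases 1 to 39 kept and matched forward to the human CRISPRi version 2 library. The submitters' processing notes name hg38, with a counter not given in the sources used here. Groups came from the sample titles. sgRNAs of P1 or P1P2 sets with a mean count of at least 20 were summed per gene (at least 3 needed), which left 17547 genes, and 104881 sgRNAs, controls and other sets included, were tested singly. Both tables were fitted whole in R 4.3.3 with edgeR 4.0.16 (TMM, glmQLFit, glmQLFTest) using all 8 libraries and a mean for each of the 4 groups. The day 9 to day 0 change was tested in each line, as was the mutant minus wild-type difference of these changes. CPM uses TMM-scaled library sizes, SEs come from the change and its F statistic, and intervals are 95%. The fit was checked on simulated counts.

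Alternatives were RLE and control scaling, DESeq2 1.42.0, limma 3.58.1 on mean log2 CPM (prior count 2), other count filters (none, or at least 100), leaving out the most abundant sgRNA, pooled promoters, fitting each line alone, a log2 threshold of 0.5, a replicate block and leaving out each library. The rule for naming took the 18 members, the sgRNAs with the largest and smallest wild-type fall in each called gene, and the 2 genes of each related list with the smallest wild-type p, besides any that were called. Further genes are named outside this rule, among them NUDCD1, NUDCD2, CLIP1, MAPRE1, KNTC1, ZWILCH and PALB2. So are further sgRNAs, among them some of DYNC1H1, ACTR10 and CAPZB. The members and lists were chosen with earlier results of these data known. CCDC64, TRAK1, NUMA1, DNAH5 and DNAH17 carry no such promoter label and were not used here. Sequences are from RefSeq's GRCh38.p14 promoter table, which has entries used here for 16 of the 18 genes.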

Additional observations from a re-analysis of the deposited data

How the results depend on the processing

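The 11 genes lower in each line became 10 to 11 in mutant and 9 to 11 in wild-type cells when single libraries were left out, and 9 to 11 in each line under the other alternatives. The losses were of DYNC1H1, DCTN4 and, with both promoters pooled, DYNLRB1; with a log2 threshold of 0.5 the number was 9 in each line by construction. No called change of the 18 reversed its sign. Called sgRNAs numbered 22 to 36 in mutant and 23 to 30 in wild-type cells without single libraries. Weighting sgRNAs alike by limma on mean log2 CPM gave DYNLRB1 -2.38 in mutant and -2.27 in wild-type cells and DCTN6 -1.24 and -1.27, and it lost the wild-type call of DCTN4 (adjusted p = 0.099), as did fitting the wild-type line alone (adjusted p = 0.0537). Without its most abundant sgRNA, by the mean count over all libraries with day 9 included, DCTN2 was at -0.97 in mutant cells. Over all genes, those differing between lines numbered 3, against 47 with DESeq2, 1 with limma on mean log2 CPM, 10 with the replicate block and 1 to 21 without single libraries (5 without mutant day 9 replicate 1 or 2, 21 without wild-type day 9 replicate 1, 1 without wild-type day 0 replicate 1), while none of the 18 differed under any of these. Replicate numbers did not pair the libraries: deviations from the group means correlated at 0.0451 between days in mutant and 0.0177 in wild-type cells, and the replicate block left 11 genes lower in each line. Low counts, as for DCTN3 sgRNA 2 at a mean count of 29.5, limit single sgRNA calls.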
